A study of Mus musculus with 35 samples.

Results

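The genes of MHC class II antigen presentation were followed in RNA of whole mouse testis at postnatal day 15 and postnatal day 25. The 8 genes, listed by symbol with earlier results of these data known, were Cd74, H2-Aa, H2-Ab1, H2-Eb1, H2-DMa, H2-DMb1, Ciita and Ctss. Of these, 7 had a probe set of their own on both array types, and all 7 were among the genes tested, which numbered 16710 of 19938 at day 15 and 16305 of 18194 at day 25. H2-DMb1 was annotated only together with its paralogue H2-DMb2, on 1 probe set at day 15 and 2 at day 25. The signal of those probe sets cannot be assigned to either gene, and they are described here as the probe sets annotated to both.

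At each age there were 6 groups of male C57BL6 mice: Akt1 homozygous PTU-exposed, Akt1 homozygous unexposed, Akt1 heterozygous PTU-exposed, Akt1 heterozygous unexposed, Akt1 wildtype PTU-exposed and Akt1 wildtype unexposed. Each group had 3 arrays of 1 mouse each, except the homozygous PTU-exposed group of day 25, which had 2, since the authors left out another array of that group for its quality, per the design text. PTU (propylthiouracil) is a goitrogen, a drug that blocks the synthesis of thyroid hormone. The series' title places the exposure in the neonatal period, and its dose and the construction of the Akt1 allele are not given in the sources used here. Akt1 is a serine/threonine kinase that acts in growth and survival signalling. Day 15 was measured on MoGene 1.0 st v1 arrays (18 arrays) and day 25 on Mouse Genome 430 2.0 arrays (17 arrays), so levels were compared only within an age. All levels are log2 intensities after RMA, the method that corrects, normalises and summarises the probes of each probe set.

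MHC class II molecules carry peptides from endocytosed proteins to the surface of macrophages, dendritic cells and B cells, where CD4+ T cells read them. H2-Aa and H2-Ab1 encode the alpha and beta chains of I-A, and H2-Eb1 encodes the beta chain of I-E. Cd74, the invariant chain, blocks the peptide groove and escorts the chains to endosomes, where Ctss (cathepsin S) trims it. H2-DM, a dimer of H2-DMa and an H2-DMb chain, then exchanges the remaining fragment for peptide. Ciita is the coactivator that switches the class II promoters on. In the testis the cells best known for these genes are the macrophages of the interstitium.

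Class II promoters are recognised through the X and Y boxes, to which RFX, CREB and NF-Y bind and on which CIITA docks. Ctss belongs to the genes that interferon induces through another kind of element. The stretch of 150 bases just before the start of transcription is shown (build GRCm38.p6, 5′ to 3′ on the strand of the gene). It is given only for H2-Aa, H2-Eb1, H2-DMb1 and Ctss, where such motifs were found. Whether these motifs bear on the differences with PTU was not tested. Capitals mark CTAGNAAC (the core of the X box, in H2-Eb1 and H2-DMb1), TGACGTCA (the CREB-type part of the X box, in H2-Aa), TGATTGG (the Y box, in H2-Aa, H2-Eb1 and H2-DMb1) and GAAA, 2 bases of any kind and GAAA again (an interferon-stimulated element, in Ctss). The stretches are chr17:34287824-34287973 on the minus strand for H2-Aa, and, on the plus strand, chr17:34305717-34305866 for H2-Eb1, chr17:34153041-34153190 for H2-DMb1 and chr3:95526636-95526785 for Ctss.
H2-Aa: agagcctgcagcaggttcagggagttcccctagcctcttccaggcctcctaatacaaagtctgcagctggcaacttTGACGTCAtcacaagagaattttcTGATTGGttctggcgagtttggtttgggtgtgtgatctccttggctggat
H2-Eb1: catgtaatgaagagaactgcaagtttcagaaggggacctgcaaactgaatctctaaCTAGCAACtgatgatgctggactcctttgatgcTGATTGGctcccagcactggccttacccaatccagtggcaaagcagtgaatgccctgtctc
H2-DMb1: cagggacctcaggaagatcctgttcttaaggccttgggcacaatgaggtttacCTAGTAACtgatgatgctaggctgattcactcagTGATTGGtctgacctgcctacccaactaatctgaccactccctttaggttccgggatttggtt
Ctss: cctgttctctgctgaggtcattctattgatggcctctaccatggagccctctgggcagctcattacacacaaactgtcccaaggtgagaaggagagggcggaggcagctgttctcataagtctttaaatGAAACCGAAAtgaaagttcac

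The X core stood at positions -94 to -87 of H2-Eb1 and -97 to -90 of H2-DMb1, and the Y box at -61 to -55 and -63 to -57. In H2-Aa the CREB-type element stood at -74 to -67 and the Y box at -50 to -44. The element of Ctss lay at -21 to -12. No marked motif overlapped another. Searched on both strands in the same stretch of 32851 RefSeq promoters, the X core was found in 1.93%, TGACGTCA in 1.36%, the Y box in 5.71% and the interferon-stimulated element in 1.59%, and the X core together with the Y box in 35 promoters (0.107%). Neither of the 2 stretches listed for H2-DMa held any of the 4 motifs. Promoters of Cd74, H2-Ab1 and Ciita are not shown, and their absence here does not mean that they lack the motifs.

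Some features of the arrays touched the results. Among the day 15 arrays, 1685 bright probe sets without a symbol split the arrays into 2 sets, and the smaller set held 2 homozygous PTU-exposed, 1 homozygous unexposed, 1 heterozygous PTU-exposed and 2 heterozygous unexposed arrays, but no wildtype array. The labels give no batch. Spink8, an epididymal gene, lay above 7 in 3 arrays at day 15 (homozygous PTU-exposed 2, wildtype unexposed 2 and 3) and in 4 at day 25 (both homozygous PTU-exposed arrays, heterozygous PTU-exposed 2 and wildtype PTU-exposed 3). The homozygous PTU-exposed arrays of day 25 stood apart over the whole array, with Spink8 at 12.92 and 12.75 and a mean of 12 pachytene and later germ cell genes of 12.00 and 10.59, against 12.72 to 13.01 in the other 15 arrays. Akt1, the targeted gene, did not separate the genotypes at day 25, with 9.28 to 9.53 in homozygous and 9.38 to 9.55 in wildtype arrays, so its probe set gave no check of the labels, and at day 15 it was lower in homozygous than in wildtype testes with PTU (9.74, 9.01 and 9.18, against 9.92, 9.95 and 10.09), while the groups overlapped without PTU (9.40, 9.23 and 9.04, against 9.34, 9.48 and 9.71). In whole testis, fewer cells of a type and less RNA per cell cannot be told apart.

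At day 15 the class II gene that changed with PTU was Ctss, the lysosomal protease. Ctss (probe set 10494271) read 8.61, 8.05 and 7.80 in homozygous PTU-exposed testes, against 8.74, 8.66 and 8.25 in homozygous unexposed testes. It read 7.97, 8.53 and 7.55 in heterozygous PTU-exposed testes, against 9.11, 8.85 and 8.48 in heterozygous unexposed testes. In wildtype testes it read 8.52, 8.49 and 8.57 with PTU, against 9.10, 9.37 and 9.16 without. The wildtype groups did not overlap, as in 18.7% of all genes in this direction, while the homozygous and the heterozygous pairs overlapped by 1 array each.

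Averaged over the 3 genotypes, Ctss fell by 0.63 ± 0.13 on the log2 scale with PTU (SE, 0.648-fold, limma adjusted p = 0.00483), in a comparison in which 12% of all genes passed and 8.09% fell, and it was the 1 class II gene of 7 that passed. Within genotypes the differences were -0.40 ± 0.23 in homozygous (adjusted p = 0.315), -0.80 ± 0.23 in heterozygous (adjusted p = 0.122) and -0.69 ± 0.23 in wildtype testes (adjusted p = 0.0494). Only the wildtype value passed, in a comparison that called 15.3% of genes, and 11 of 18 fits that each left out 1 array lost it. The genotypes were not shown to differ in this response: the difference between homozygous and wildtype was 0.29 ± 0.32 (adjusted p = 0.568) and between heterozygous and wildtype -0.11 ± 0.32 (adjusted p = 0.951). Leaving out any 1 array kept the averaged call, with differences of -0.71 to -0.55. With the array set as a block the averaged difference was -0.63 (adjusted p = 0.000190) and that in heterozygous testes -0.99 (adjusted p = 0.00660), and among the arrays of the larger set the averaged difference was -0.55 (adjusted p = 0.0207). Without the 3 arrays with Spink8 above 7 it was -0.57 ± 0.17, with an adjusted p of 0.0674, and that in wildtype testes, of which 1 unexposed array was then left, was -0.58 ± 0.35 (adjusted p = 0.385).

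**Figure D1:**
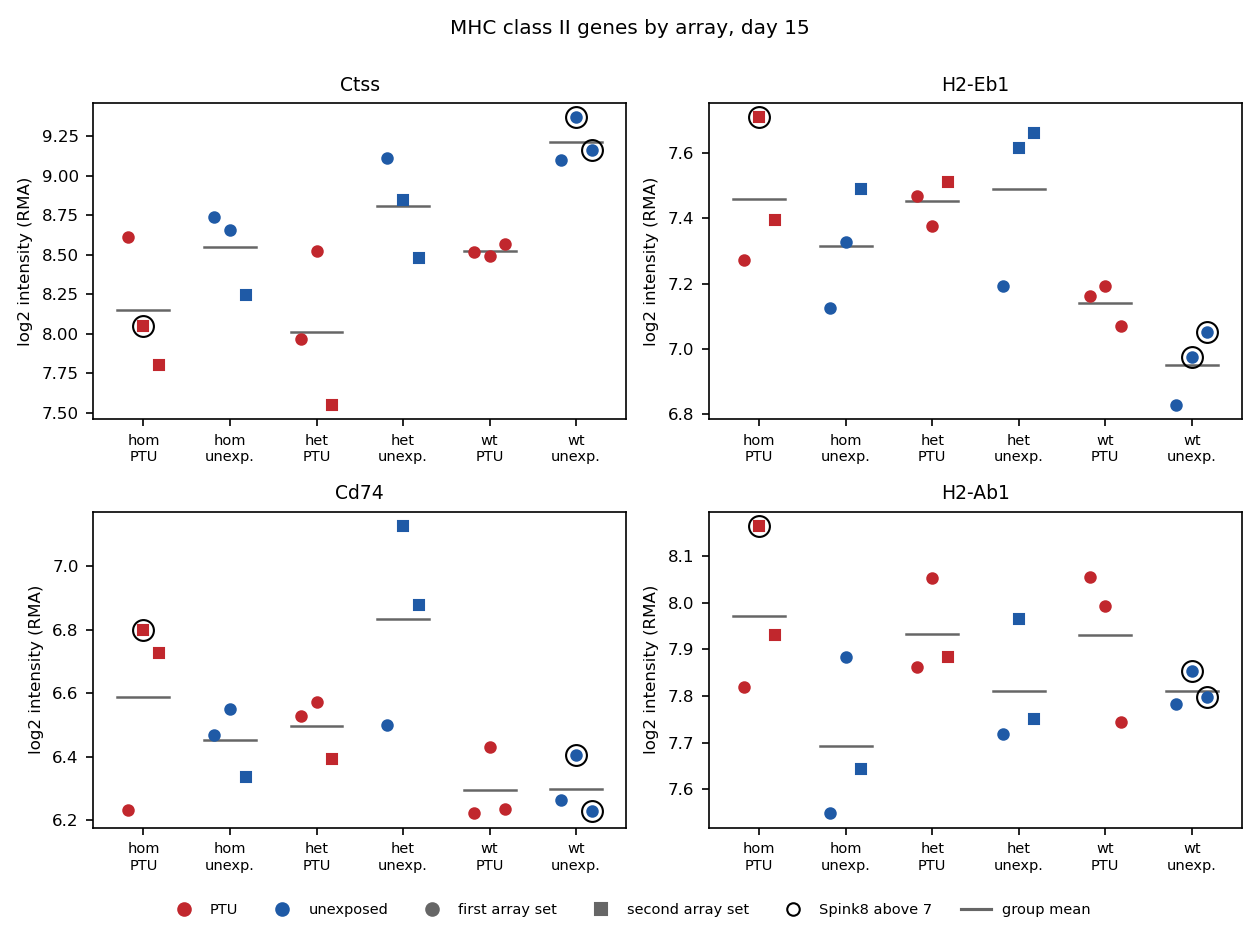
Log2 intensities of Ctss, H2-Eb1, Cd74 and H2-Ab1 in the 18 arrays of day 15 by genotype and exposure. Squares are the smaller array set, rings mark arrays with Spink8 above 7, and bars are group means. Ctss lies between 8.49 and 8.57 in wildtype PTU-exposed arrays and between 9.10 and 9.37 in wildtype unexposed arrays.

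Ctss was also lower in homozygous than in wildtype testes at day 15. Without PTU the homozygous values of 8.74, 8.66 and 8.25 all lay below the wildtype values of 9.10, 9.37 and 9.16 (20.7% of all genes lay without overlap in this direction), a difference of -0.66 ± 0.23 (adjusted p = 0.0360), and 5 of 18 fits that left out 1 array lost the call. With PTU the difference was -0.37 ± 0.23 (adjusted p = 0.302), and over both exposures -0.52 ± 0.16 (adjusted p = 0.0253). With the array set as a block, the difference without PTU was -0.47 (adjusted p = 0.0153) and that over both exposures -0.23 (adjusted p = 0.135), and in the larger set they were -0.51 (adjusted p = 0.0180) and -0.21 (adjusted p = 0.252). Without the arrays with Spink8 above 7 Ctss differed by -0.55 ± 0.35 without PTU (adjusted p = 0.318) and by -0.44 ± 0.22 over both exposures (adjusted p = 0.208). Ordered by mean, the groups ran wildtype unexposed (9.21 ± 0.14, SD, n = 3), heterozygous unexposed (8.81 ± 0.32), homozygous unexposed (8.55 ± 0.26), wildtype PTU-exposed (8.53 ± 0.04), homozygous PTU-exposed (8.15 ± 0.42) and heterozygous PTU-exposed (8.01 ± 0.49). Every neighbouring pair in that order overlapped.

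Macrophage genes fell in the same comparison as Ctss. Of 19 macrophage genes tested at day 15, 0 rose and 12 fell with PTU averaged over genotypes, where 8.09% of all genes fell. Their median difference was -0.39 against 0.02 over all genes. The macrophage genes that fell included the mannose receptor Mrc1 (-0.77 ± 0.10, adjusted p = 0.000164), the folate receptor Folr2 (-0.39 ± 0.05, adjusted p = 0.000164), the lysosomal glycoprotein Cd68 (-0.54 ± 0.07, adjusted p = 0.000128) and the CSF1 receptor Csf1r (-0.47 ± 0.06, adjusted p = 0.000168). Array by array, the summed level of the 19 genes ranged from 11.29 to 11.81 (log2 of the sum) in the 9 PTU-exposed arrays and from 11.85 to 12.30 in the 9 unexposed arrays, without overlap. Of 12 pan-leukocyte genes 0 rose and 5 fell, among them Fcer1g (-0.66 ± 0.08), Laptm5 (-0.50 ± 0.08), Arhgdib (-0.53 ± 0.09) and Tyrobp (-0.30 ± 0.07), with a summed level of 10.18 to 10.56 with PTU and 10.58 to 11.09 without. Ptprc (CD45) differed by -0.15 ± 0.06 (adjusted p = 0.0928). The part of these cells in the difference of Ctss was not tested.

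**Figure D2:**
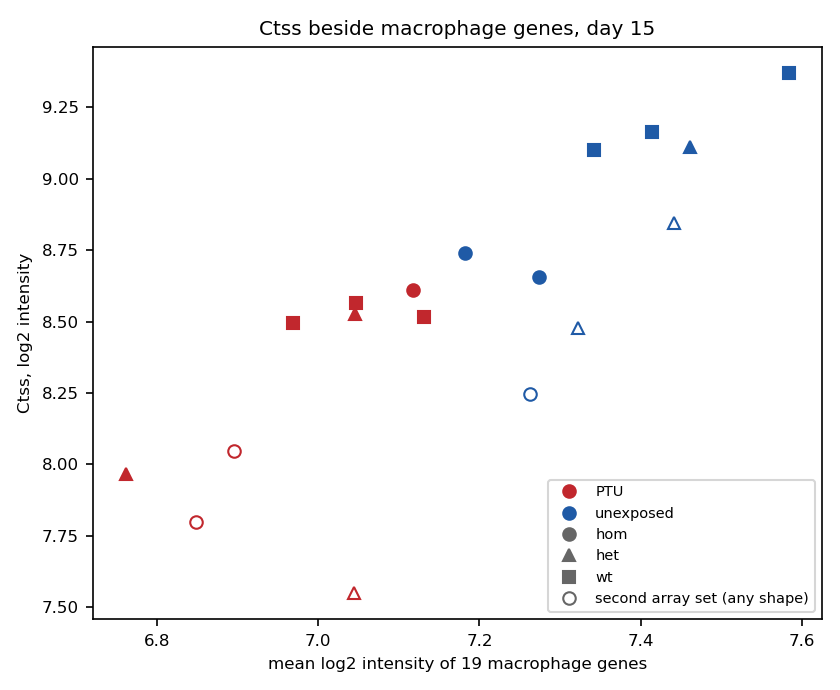
Ctss log2 intensity (vertical) against the mean log2 intensity of 19 macrophage genes (horizontal) in each day 15 array. PTU-exposed arrays (red) have macrophage means up to 7.13 and unexposed arrays (blue) from 7.18 upwards, and Ctss runs from 7.55 to 9.37. Open symbols are the smaller array set.

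Of 15 other protease and trafficking genes of the class II pathway, 2 rose, 3 fell and 10 did not pass with PTU at day 15, averaged over genotypes. Of all genes, 3.88% rose and 8.09% fell there. The protease and trafficking genes that fell were Lgmn, the asparaginyl endopeptidase legumain (-0.64 ± 0.07, adjusted p = 6.1e-05), Ctsc, or cathepsin C (-0.58 ± 0.13, adjusted p = 0.00750), and Ctsl, or cathepsin L (-0.24 ± 0.05, adjusted p = 0.00750). Lgmn read 11.18, 10.97 and 10.98 in homozygous PTU-exposed testes, against 11.99, 11.82 and 11.62 in homozygous unexposed testes. The tetraspanin Cd9 rose by 0.37 ± 0.09 (adjusted p = 0.0128). Ctsl is also a well known Sertoli cell product, and of 11 Sertoli cell genes 0 rose and 5 fell. The part of Sertoli cells in the difference of Ctsl was not tested.

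No class II chain passed for PTU averaged over genotypes at day 15. H2-Ab1 differed by 0.17 ± 0.07 averaged over genotypes (adjusted p = 0.103), H2-Eb1 by 0.10 ± 0.08 (adjusted p = 0.442), H2-Aa by 0.09 ± 0.11 (adjusted p = 0.642) and Cd74 by -0.07 ± 0.09 (adjusted p = 0.655). H2-DMa differed by 0.02 ± 0.05 (adjusted p = 0.818) and Ciita by 0.04 ± 0.07 (adjusted p = 0.719). The interval of the difference was -0.14 to 0.32 for H2-Aa and -0.25 to 0.11 for Cd74. A difference in intensity of the size seen in Ctss lies outside both intervals. Both genes were dimmer than Ctss, with Cd74 between 6.22 and 7.13, H2-Aa between 6.45 and 7.31 and Ctss between 7.55 and 9.37. The array medians at day 15 ran from 7.02 to 7.12. The intervals thus hold for intensities, and whether RNA of Cd74 and H2-Aa changed as much as that of Ctss was not tested. With the labels' sample numbers as a block, H2-Ab1 passed (0.17 ± 0.05, adjusted p = 0.0352). Over 18 arrays H2-Ab1 lay between 7.55 and 8.16, H2-Aa between 6.45 and 7.31, H2-DMa between 6.15 and 6.61 and Ciita between 5.94 and 6.49, and in these 4 genes every pair of groups next to each other in mean overlapped. The 1 probe set annotated to both H2-DMb1 and H2-DMb2 differed by 0.07 ± 0.07 (adjusted p = 0.581).

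Within genotypes, 0 of 7 class II genes passed for PTU in homozygous and 0 in heterozygous testes at day 15 (limma), with 2 each at an unadjusted p under 0.05, where 4.96% and 0.569% of all genes passed and 22.6% and 13.5% had an unadjusted p under 0.05. H2-DMa read 6.37, 6.55 and 6.61 in homozygous PTU-exposed testes, all above the 6.29, 6.17 and 6.15 of homozygous unexposed testes. That difference of 0.30 ± 0.09 did not pass (adjusted p = 0.0739), and 20.4% of all genes showed groups without overlap there. The same gene differed by -0.14 ± 0.09 in heterozygous testes (adjusted p = 0.538), where the groups lay without overlap in the other direction. There it read 6.28, 6.45 and 6.45 with PTU, against 6.48, 6.55 and 6.59 without, and 15.2% of all genes showed groups without overlap. In wildtype testes it differed by -0.09 ± 0.09 (adjusted p = 0.578). The difference between homozygous and wildtype responses, 0.39 ± 0.13, had an adjusted p of 0.0532. It passed with the sample number as a block (adjusted p = 0.0431) and was 0.23 among the arrays of the larger set (adjusted p = 0.352). Cd74 differed by -0.34 ± 0.15 in heterozygous testes (adjusted p = 0.340).

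By genotype, the class II chain H2-Eb1 was higher in Akt1 mutant testes at day 15. H2-Eb1 (probe set 10444298) read 7.27, 7.71 and 7.39 in homozygous and 7.47, 7.38 and 7.51 in heterozygous testes with PTU, against 7.16, 7.19 and 7.07 in wildtype testes with PTU. Without PTU it read 7.12, 7.33 and 7.49 in homozygous and 7.19, 7.61 and 7.66 in heterozygous testes, against 6.83, 6.97 and 7.05 in wildtype testes. Every homozygous array lay above every wildtype array of the same exposure, as in 11.9% of all genes with PTU and 28.2% without. The difference was 0.36 ± 0.13 for homozygous minus wildtype without PTU (adjusted p = 0.0482), 0.32 ± 0.13 with PTU (adjusted p = 0.158) and 0.34 ± 0.09 over both (adjusted p = 0.0146). For heterozygous minus wildtype over both exposures it was 0.42 ± 0.09 (adjusted p = 0.0376).

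These genotype calls changed when the array sets were taken into account. With the array set as a block, H2-Eb1 differed by 0.21 over both exposures for homozygous (adjusted p = 0.0786) and 0.29 for heterozygous testes (adjusted p = 0.194), and among arrays of the larger set by 0.20 (adjusted p = 0.113) and 0.26 (adjusted p = 0.329). The homozygous difference without PTU held under both, at 0.27 with the block (adjusted p = 0.0475). It was lost in 13 of 18 fits that left out 1 array, and the heterozygous call in 12. Without the arrays with Spink8 above 7 H2-Eb1 differed by 0.49 ± 0.18 for homozygous minus wildtype without PTU (adjusted p = 0.0827), by 0.34 ± 0.11 over both exposures (adjusted p = 0.0714) and by 0.48 ± 0.11 for heterozygous minus wildtype (adjusted p = 0.0716). In all, 2 of 7 class II genes passed for homozygous minus wildtype without PTU (H2-Eb1 higher, Ctss lower), where 28.9% of all genes passed, and the same 2 over both exposures, where 28.3% passed. For homozygous minus wildtype with PTU 0 of 7 passed in limma (2 at an unadjusted p under 0.05), where 0% of all genes passed (25.5% at an unadjusted p under 0.05). For heterozygous minus wildtype 1 of 7 passed, where 0.999% of all genes did. Cd74 differed by 0.37 ± 0.11 there (adjusted p = 0.0999), with 7.13 and 6.88 in the heterozygous unexposed arrays of the smaller set and 6.50 in the other. For the interactions 0 of 7 passed in limma (1 at an unadjusted p under 0.05 for homozygous and 0 for heterozygous), where 16.4% and 0.449% of all genes passed and 31.5% and 9.41% had an unadjusted p under 0.05.

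Germ cell genes differed between these groups as well. The mean of 12 pachytene and later germ cell genes was 6.51, 6.85 and 7.52 in homozygous unexposed testes, against 10.41, 9.92 and 10.14 in wildtype unexposed testes, and all 12 fell. It was 8.86, 7.75 and 7.66 in wildtype PTU-exposed testes, where 10 of 12 fell relative to wildtype unexposed testes. The part of this difference in cell makeup in the values of H2-Eb1 and Ctss was not tested.

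The counts of other gene lists follow for PTU averaged over genotypes at day 15, where 12% of all genes passed. Of 13 genes of class II transcription control 0 passed for PTU, with Nfyb, a subunit of the Y box factor NF-Y, at 0.28 ± 0.10 (adjusted p = 0.0793) and Rfx5, the X box factor, at -0.19 ± 0.07 (adjusted p = 0.0864). Of 16 class I presentation genes 0 passed, with B2m at -0.19 ± 0.10 (adjusted p = 0.228) and the class I coactivator Nlrc5 at 0.16 ± 0.06 (adjusted p = 0.106). Costimulation (0 of 6), T and NK cell (0 of 8), B cell (0 of 4) and monocyte and neutrophil genes (0 of 3) gave no call either. Of 11 dendritic cell genes 1 rose, Zbtb46 (0.40 ± 0.07, adjusted p = 0.00202), and 1 fell, Flt3 (-0.64 ± 0.08, adjusted p = 0.000159). Ifng, whose product induces Ciita in many cells, lay between 4.86 and 5.64 over all arrays and differed by 0.14 ± 0.09 (adjusted p = 0.358). The B cell genes Ms4a1, Cd79a and Fcer2a did not pass the filter on low values at day 15.

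At day 25, 2 of 7 class II genes passed for PTU in homozygous testes, where 71.2% of all genes passed (38.4% higher, 32.8% lower). They differed in opposite directions: H2-Aa, the I-A alpha chain, was higher and H2-DMa lower. H2-Aa (probe set 1435290_x_at) read 7.78 and 8.03 in homozygous PTU-exposed testes, against 6.57, 5.58 and 6.51 in homozygous unexposed testes. It read 5.94, 6.34 and 6.07 in heterozygous PTU-exposed testes, against 6.48, 6.07 and 6.68 in heterozygous unexposed testes, and 5.54, 5.69 and 7.12 in wildtype PTU-exposed testes, against 6.01, 5.45 and 5.51 in wildtype unexposed testes. The homozygous PTU-exposed arrays lay above all 15 others, and the next highest, at 7.12, was wildtype PTU-exposed array 3. That array had Spink8 at 8.72 and the fat gene Car3 at 10.76, and the homozygous PTU-exposed arrays had Spink8 at 12.92 and 12.75. Heterozygous PTU-exposed array 2 had Spink8 at 10.07 and Car3 at 8.32, and read 6.34 in H2-Aa. The part of neighbouring tissue in these values was not tested.

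H2-Aa rose by 1.68 ± 0.39 with PTU in homozygous testes (3.21-fold, limma adjusted p = 0.00134), where 71.2% of all genes passed. It differed by -0.30 ± 0.35 in heterozygous (adjusted p = 0.597) and 0.46 ± 0.35 in wildtype testes (adjusted p = 0.939). The homozygous response exceeded that of wildtype by 1.22 ± 0.53, with an adjusted p of 0.0568. Leaving out any 1 array kept the homozygous call (1.36 to 1.86), but array weights did not (1.64 ± 0.73, adjusted p = 0.0732). Averaged over genotypes H2-Aa rose by 0.61 ± 0.21 (adjusted p = 0.0192). Without the homozygous PTU-exposed arrays, the difference over the other 2 genotypes was 0.08 ± 0.25 (adjusted p = 0.862). Without the 4 arrays with Spink8 above 7, which include both homozygous PTU-exposed ones, it was -0.23 ± 0.19 over heterozygous and wildtype testes (adjusted p = 0.536).

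The probe sets of H2-Aa disagreed in size. A dimmer probe set (1438858_x_at) rose by 0.83 ± 0.21 with PTU in homozygous testes (6.42 and 7.10, against 6.16, 5.73 and 5.90; adjusted p = 0.00259). Another (1452431_s_at) read 5.50 and 5.59, against 5.73, 5.12 and 5.56, a difference of 0.08 ± 0.17 (adjusted p = 0.694). The mean of the probe sets of H2-Aa rose by 0.72 ± 0.19 (adjusted p = 0.00355). The probe set with the dimmest signal lay between 3.01 and 3.57 in all arrays and was below the filter of 4.76.

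H2-DMa, the alpha chain of the peptide editor, fell where H2-Aa rose. H2-DMa (probe set 1422527_at) read 6.73 and 7.03 in homozygous PTU-exposed testes, against 7.77, 7.72 and 7.65 in homozygous unexposed testes. It read 7.02, 7.30 and 7.46 in heterozygous PTU-exposed testes, against 7.47, 7.71 and 7.74 in heterozygous unexposed testes, and 7.36, 7.28 and 7.13 in wildtype PTU-exposed testes, against 7.57, 7.40 and 7.19 in wildtype unexposed testes. The groups did not overlap in homozygous and heterozygous mice, as in 35.6% and 14.4% of all genes in this direction, and overlapped in wildtype mice. A dimmer H2-DMa probe set (1459872_x_at) lay between 3.89 and 4.67 in all arrays, below the filter of 4.76, and was not tested. Its homozygous means were 4.14 with PTU and 4.40 without.

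The fall of H2-DMa was 0.83 ± 0.15 on the log2 scale in homozygous testes (0.563-fold, adjusted p = 0.000119). It differed by -0.38 ± 0.13 in heterozygous (adjusted p = 0.0537, where 18.7% of all genes passed) and by -0.13 ± 0.13 in wildtype testes (adjusted p = 0.964, where 0% passed). The difference between homozygous and wildtype responses, -0.70 ± 0.19, passed (adjusted p = 0.00641), as did 59.4% of all genes. Averaged over genotypes H2-DMa fell by 0.45 ± 0.08 (adjusted p = 0.000165). Without the homozygous PTU-exposed arrays it was -0.26 ± 0.09 over the other 2 genotypes (adjusted p = 0.0548), and in heterozygous testes the difference of -0.38 then passed (adjusted p = 0.0329). Without the 4 arrays with Spink8 above 7 the average over heterozygous and wildtype testes was -0.23 ± 0.10 (adjusted p = 0.193), in a fit in which 27 genes passed.

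The 2 probe sets annotated to both H2-DMb1 and H2-DMb2 fell as well. One (1418638_at) read 6.16 and 6.10 in homozygous PTU-exposed testes, against 7.46, 7.09 and 7.19 in homozygous unexposed testes, and fell by 1.11 ± 0.15 (adjusted p = 8.13e-06). The other (1449580_s_at) read 6.70 and 6.29, against 7.45, 7.11 and 6.99, and fell by 0.69 ± 0.14 (adjusted p = 0.000371). In heterozygous and wildtype testes their differences lay between -0.08 and 0.01. A probe set with H2-DMb2 as its only gene fell by 0.37 ± 0.13 in homozygous testes (adjusted p = 0.0180), so the part of H2-DMb1 was not separable.

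**Figure D3:**
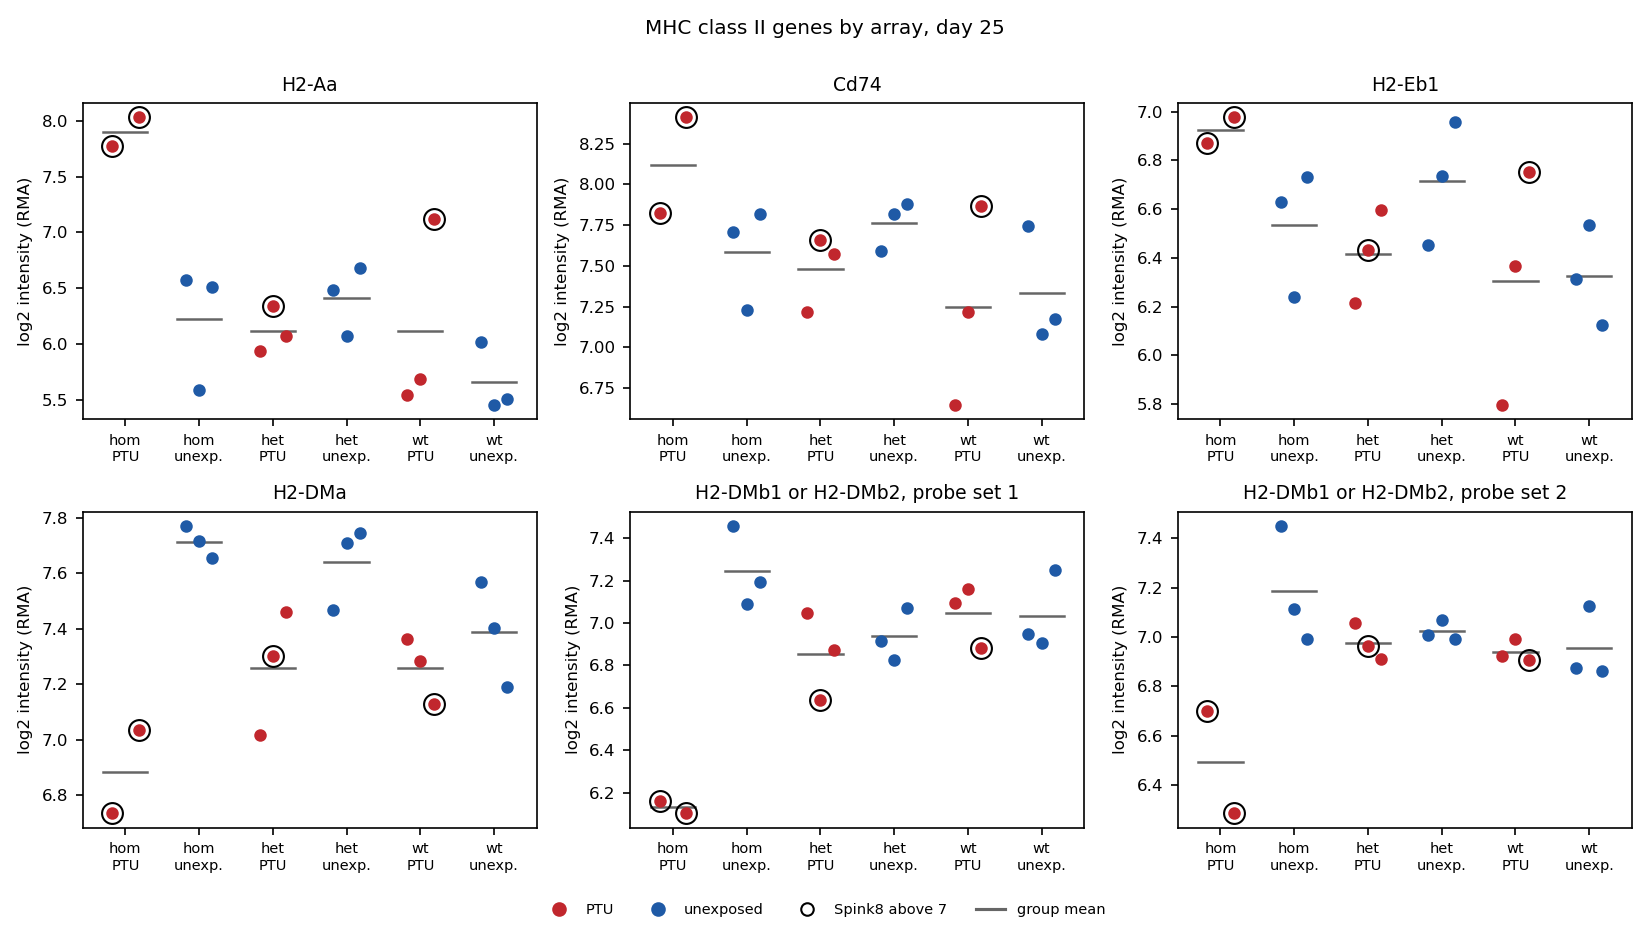
Log2 intensities of H2-Aa, Cd74, H2-Eb1, H2-DMa and the 2 probe sets annotated to both H2-DMb1 and H2-DMb2 in the 17 arrays of day 25. Bars are group means and rings mark the 4 arrays with Spink8 above 7. H2-Aa is at 7.78 and 8.03 in homozygous PTU-exposed arrays and at most 7.12 elsewhere, while H2-DMa is at 6.73 and 7.03 there.

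Cd74 and H2-Eb1 were higher in homozygous than in wildtype testes with PTU at day 25. Cd74 (probe set 1425519_a_at) read 7.83 and 8.41 in homozygous PTU-exposed testes, against 7.71, 7.23 and 7.82 in homozygous unexposed testes and 6.65, 7.22 and 7.87 in wildtype PTU-exposed testes. H2-Eb1 (probe set 1417025_at) read 6.87 and 6.98 in homozygous PTU-exposed testes, against 6.63, 6.24 and 6.73 in homozygous unexposed testes and 5.80, 6.37 and 6.75 in wildtype PTU-exposed testes. In the other 9 arrays Cd74 lay between 7.08 and 7.88 and H2-Eb1 between 6.13 and 6.96. The homozygous and wildtype PTU-exposed groups overlapped in Cd74 and not in H2-Eb1, and 38.1% of all genes lay without overlap in this direction. For PTU in homozygous testes neither passed (Cd74 0.53 ± 0.30, adjusted p = 0.125; H2-Eb1 0.39 ± 0.23, adjusted p = 0.144). For homozygous minus wildtype with PTU both passed, Cd74 with 0.87 ± 0.30 (adjusted p = 0.0202) and H2-Eb1 with 0.62 ± 0.23 (adjusted p = 0.0314).

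In that comparison H2-Aa was higher by 1.79 ± 0.39 (3.45-fold, adjusted p = 0.00110) and H2-DMa lower, by -0.37 ± 0.15 (adjusted p = 0.0361), so that 4 of 7 class II genes passed where 61.1% of all genes did. With the groups of the comparison fitted alone, or with array weights, H2-Aa was the 1 class II gene that passed, and Cd74 had adjusted p of 0.104 and 0.174. Leaving out wildtype PTU-exposed array 1, the lowest of its group in Cd74 and H2-Eb1, brought their differences to 0.57 (adjusted p = 0.0950) and 0.36 (adjusted p = 0.147). Leaving out homozygous PTU-exposed array 2 brought Cd74 to 0.58 (adjusted p = 0.214) and H2-Eb1 to 0.57 (adjusted p = 0.138), and without homozygous PTU-exposed array 1 H2-DMa was at -0.22 (adjusted p = 0.272). Over both exposures, homozygous minus wildtype, Cd74 (0.56 ± 0.20, adjusted p = 0.0355), H2-Aa (1.18 ± 0.26, adjusted p = 0.00281) and H2-Eb1 (0.41 ± 0.16, adjusted p = 0.0448) were higher and Ciita lower (-0.17 ± 0.06, adjusted p = 0.0375), 4 of 7 where 42.4% of all genes passed. The calls of Cd74, H2-Eb1 and Ciita were lost in 7, 10 and 8 of 17 fits that left out 1 array.

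Without PTU the genotypes gave no class II call at day 25. For homozygous minus wildtype 0 of 7 passed in limma (1 at an unadjusted p under 0.05), where 12.7% of all genes passed and 29.3% had an unadjusted p under 0.05. H2-DMa read 7.77, 7.72 and 7.65 in homozygous unexposed testes, above the 7.57, 7.40 and 7.19 of wildtype unexposed testes, as in 16.8% of all genes. That difference of 0.32 ± 0.13 did not pass (adjusted p = 0.109). It passed with array weights (0.33, adjusted p = 0.0479) and had an adjusted p of 0.0565 to 0.137 under the other alternatives, single arrays left out apart. H2-Aa differed by 0.56 ± 0.35 (adjusted p = 0.305), Cd74 by 0.25 ± 0.27 (adjusted p = 0.569) and Ctss by -0.44 ± 0.23 (adjusted p = 0.213). For heterozygous minus wildtype over both exposures 0 of 7 passed, and 0 had an unadjusted p under 0.05, where 18.8% and 33.8% of all genes did.

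H2-Ab1, Ciita and Ctss did not pass for PTU at day 25, by their brightest probe sets. H2-Ab1, the beta partner of H2-Aa, lay between 8.06 and 8.60 in all 17 arrays. It differed by -0.12 ± 0.16 with PTU in homozygous testes (adjusted p = 0.515), with an interval of -0.45 to 0.22. That interval does not reach the 1.68 of the brightest H2-Aa probe set. It does hold the difference of the H2-Aa probe set 1452431_s_at (means of 5.55 with PTU and 5.47 without). The dimmer H2-Ab1 probe sets overlapped between the homozygous groups. One (1425477_x_at) read 5.81 and 6.31 with PTU, against 6.16, 5.59 and 5.91 without. The other (1451721_a_at) read 6.82 and 7.19, against 7.11, 6.82 and 6.92. Averaged over genotypes the brightest H2-Ab1 probe set differed by -0.14 ± 0.08 (adjusted p = 0.159), and with quantile normalisation by -0.21 ± 0.09, which passed (adjusted p = 0.0388). Ctss lay between 8.02 and 9.19 and differed by 0.38 ± 0.25 in homozygous (adjusted p = 0.187), -0.21 ± 0.23 in heterozygous (adjusted p = 0.550) and -0.16 ± 0.23 in wildtype testes (adjusted p = 0.984), and its averaged difference was 0.00 ± 0.14. Ciita, between 5.05 and 5.39 and so little above the filter of 4.76, differed by -0.02 ± 0.09 in homozygous testes (adjusted p = 0.888). A dimmer Ciita probe set (1421211_a_at) read 4.69 and 4.53 in homozygous PTU-exposed testes, against 5.09, 4.84 and 4.96 in homozygous unexposed testes, so that both PTU-exposed values lay below that filter, and the dimmest one lay below it in all arrays (3.70 to 4.35). The mean of the 3 probe sets passed (-0.22 ± 0.09, adjusted p = 0.0360), as it did for homozygous minus wildtype with PTU (-0.23 ± 0.09, adjusted p = 0.0340).

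In all, 2 of 7 class II genes passed for PTU averaged over genotypes at day 25, where 63.9% of all genes passed, and 2 of 7 in homozygous testes, where 71.2% passed. In heterozygous testes 0 of 7 passed in limma (1 at an unadjusted p under 0.05, against 33% of all genes), and in wildtype testes 0 of 7 (0 at an unadjusted p under 0.05), where 6% of all genes had an unadjusted p under 0.05. For the heterozygous interaction 0 of 7 passed, with 0 at an unadjusted p under 0.05, where 0% of all genes passed (18.3% at an unadjusted p under 0.05).

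**Figure D4:**
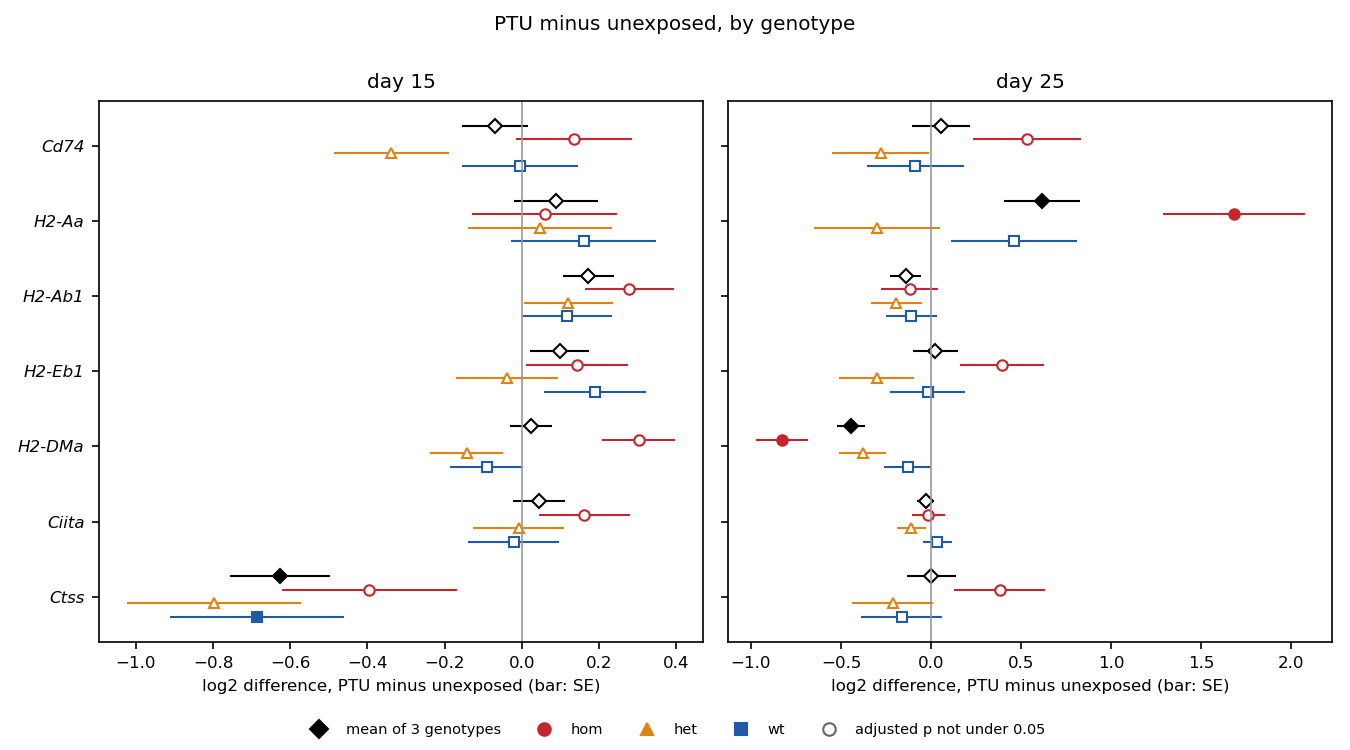
Log2 difference of PTU-exposed minus unexposed testes for 7 class II genes at day 15 and day 25, averaged over genotypes and within homozygous, heterozygous and wildtype mice. Bars are limma standard errors and filled symbols passed the adjusted p threshold of 0.05. Ctss is the gene to the left at day 15 (-0.63 averaged), and H2-Aa (1.68) and H2-DMa (-0.83) stand apart in homozygous mice at day 25.

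With PTU in homozygous testes at day 25, 38.4% of all genes rose and 32.8% fell, and the counts of leukocyte genes are given beside these shares. In homozygous testes 3 of 18 macrophage genes rose and 9 fell with PTU, with a median of -0.38 against 0.02 over all genes, and their summed level was 11.57 and 11.65 in the 2 homozygous PTU-exposed arrays, against 12.16 to 12.37 in homozygous unexposed arrays. Aif1 fell by 4.35 ± 0.38, Adgre1, a surface receptor of macrophages, by 0.95 ± 0.17 and the fractalkine receptor Cx3cr1 by 0.79 ± 0.14. The fall of Aif1 was far from the median of the list, in 2 arrays that were also low in pachytene and later germ cell genes. Whether its signal came from macrophages was not tested. Of 6 B cell genes 0 rose and 4 fell, of 6 T and NK cell genes 0 rose and 3 fell, and of 9 dendritic cell genes 1 rose and 3 fell. Of 12 pan-leukocyte genes 1 rose and 4 fell. The 1 that rose, Cd52, is also a product of epididymal epithelium: it read 12.92 and 12.90 in homozygous PTU-exposed testes, against 6.52, 5.67 and 5.90 in homozygous unexposed testes, and the arrays high in Cd52 were those with Spink8 above 7. Of 7 epididymal genes 4 rose and 1 fell. One that rose, Adam7, read 8.38 and 8.50, against 4.68, 4.27 and 4.27. The fat gene Car3 read 9.12 and 7.53 in homozygous PTU-exposed testes, against 3.88 to 4.58 in homozygous unexposed testes. It read 4.14, 8.32 and 5.23 in heterozygous PTU-exposed testes, against 4.31, 6.10 and 7.45 in heterozygous unexposed testes, and 6.64, 9.22 and 10.76 in wildtype PTU-exposed testes, against 4.19 to 4.68 in wildtype unexposed testes. High Car3 was thus found with and without PTU. The part of neighbouring tissue in the values of H2-Aa, Cd74 and H2-Eb1 was not tested. Nor was the part of neighbouring tissue or of the lower germ cell genes in the falls of H2-DMa and of the probe sets annotated to both H2-DMb1 and H2-DMb2.

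**Figure D5:**
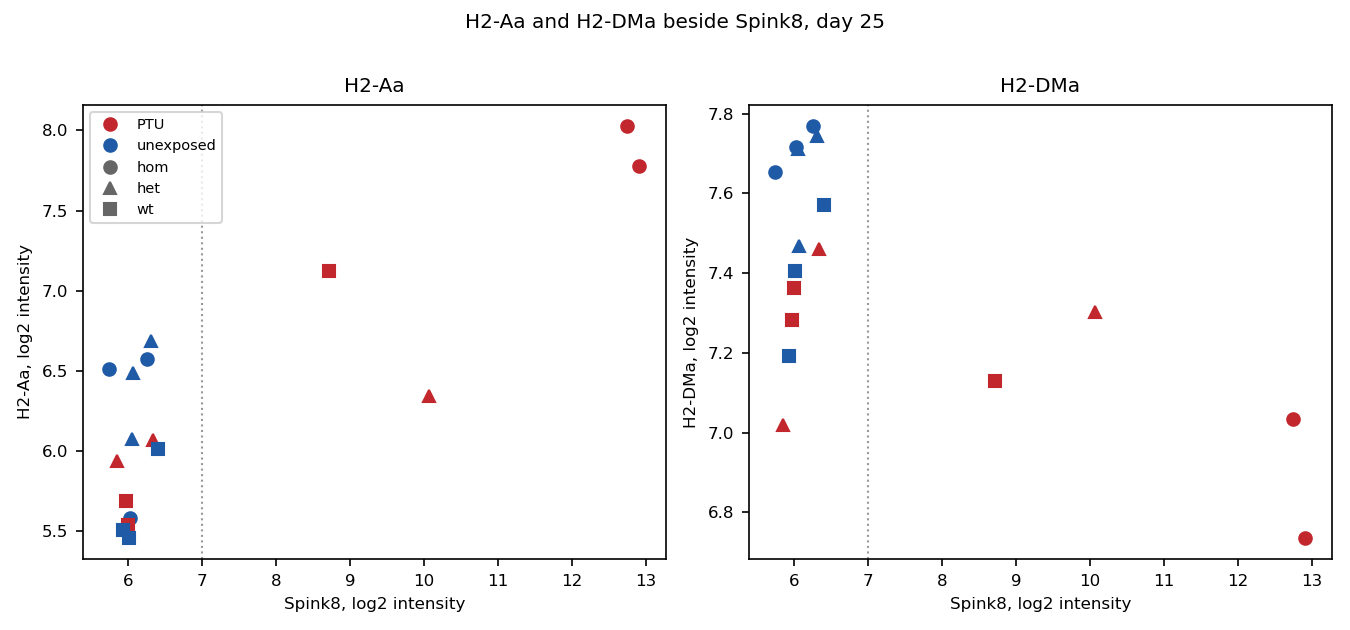
H2-Aa and H2-DMa (vertical, log2 intensity) against the epididymal gene Spink8 (horizontal, log2 intensity) in the 17 arrays of day 25. The dotted line is at 7. The 2 homozygous PTU-exposed arrays have Spink8 of 12.92 and 12.75, the highest H2-Aa and, with 6.73 and 7.03, low H2-DMa.

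With PTU in homozygous testes at day 25, 12 of 16 class I presentation genes rose and 0 fell, with a median of 0.71 against 0.02 over all genes, of which 38.4% rose and 32.8% fell. The class I light chain B2m read 12.07 and 12.16 in homozygous PTU-exposed testes, against 10.70, 10.50 and 10.42 in homozygous unexposed testes, and rose by 1.57 ± 0.19. The peptide-trimming aminopeptidase Erap1 rose by 2.03 ± 0.17. Of 13 protease and trafficking genes 11 rose and 0 fell, with a median of 1.11. Averaged over genotypes, where 63.9% of all genes passed, Marchf8, a ligase that ubiquitinates class II, differed by 0.79 ± 0.08 and Cd9 by 0.79 ± 0.09. Sppl2a, which cleaves the last fragment of the invariant chain, differed by 0.52 ± 0.08, Ctsd by 0.44 ± 0.08, Lgmn by 0.35 ± 0.07 and Ctsl by 0.31 ± 0.06. These averages include the homozygous PTU-exposed arrays that stood apart, and in wildtype testes 0% of all genes passed. Lgmn read 10.56, 10.52 and 10.60 in wildtype PTU-exposed testes, against 10.64, 10.52 and 10.69 in wildtype unexposed testes. In heterozygous testes it read 10.59, 10.69 and 10.51 with PTU, against 10.42, 9.99 and 10.01 without. Of 12 genes of class II transcription control 7 rose and 3 fell in homozygous testes. With the same arrays included, the differences averaged over genotypes were 0.78 ± 0.08 for Nfyb, 0.53 ± 0.05 for Creb1, 0.46 ± 0.06 for Nfyc and -0.57 ± 0.07 for the RFX subunit Rfxank.

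Of the 4 other class II chain genes tested at day 25, 0 rose and 3 fell with PTU in homozygous testes, where 71.2% of all genes passed: H2-Oa, a chain of the H2-DM inhibitor H2-O (-0.50 ± 0.14, adjusted p = 0.00623), H2-DMb2 (-0.37 ± 0.13) and H2-Ea (-0.45 ± 0.16, adjusted p = 0.0229). H2-Eb2 differed by 0.09 ± 0.13. Mice of this background are known not to express H2-Ea, and the source of the signal of its probe set was not tested. At day 15 the 2 tested, H2-Oa and H2-Ob, differed by 0.05 ± 0.07 and 0.02 ± 0.07 over genotypes.

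As a description, deviations from the group means over 17 arrays correlated at r = 0.85 (Spearman 0.84) between Cd74 and H2-Aa, 0.80 (0.81) between Cd74 and H2-Ab1 and 0.77 (0.64) between Cd74 and H2-Eb1, while Cd74 and Ctss gave 0.21 (0.25). Without the arrays with Spink8 above 7, the levels of Cd74 correlated with H2-Aa at 0.83 and with H2-Eb1 at 0.84. At day 15 the same deviations over 18 arrays gave 0.54 (0.55) for Cd74 with H2-Aa, 0.64 (0.62) with H2-Ab1 and 0.57 (0.33) with H2-Eb1, and -0.58 (-0.61) for H2-Eb1 with Ctss. Arrays share their normalisation and, at day 15, the array sets.

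The 5 tested genes outside the class II genes whose levels were most like the mean of the 7 class II genes were Npdc1 (r = 0.83), Lmcd1 (0.78), Zfpl1 (0.74), Tff3 (0.74) and Rom1 (0.74) over the 18 arrays of day 15. Over the 17 arrays of day 25 they were Slc25a27 (0.86), Tns1 (0.82), Dapl1 (0.81), Tfpt (0.80) and C230035I16Rik (0.79). No gene was in both lists.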

How the data were processed

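Whole testis RNA was hybridised to 1-colour Affymetrix arrays, and the authors deposited log2 intensities from RMA, per the submitters' processing notes. No RMA version is named in those notes. Probe sets with 1 symbol were kept, symbols were updated by Entrez ID to the RefSeq gene table (GRCm38.p6), and each gene was represented by its brightest probe set. A gene was tested if 2 or more arrays exceeded the 25th percentile of every deposited value, which was 5.56 (day 15) or 4.76 (day 25). For each age a model of 6 group means was fitted to all arrays (limma 3.58.1, R 4.3.3), with 10 contrasts, moderated tests and Benjamini-Hochberg adjustment over all tested genes at a threshold of 0.05. Adjusted p-values are limma's throughout. The probe sets annotated to both H2-DMb1 and H2-DMb2 and the dimmer probe sets were tested in fits with them added to the table.

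The class II genes and the gene lists were chosen with earlier results of these data known. From each other list, the genes with values are up to 4 with the smallest p for PTU averaged over genotypes at that age, plus a set list of genes. The most alike genes are the 5 with the highest correlation with the mean of the class II genes. Each array is 1 mouse, per the design text, and the number of arrays limits the precision. Group-wise sample numbers came from the labels. Samples with the same number deviated together (every correlation above 0.1) for PTU in heterozygous testes at day 15 (0.39 to 0.44), homozygous minus wildtype with PTU at day 15 (0.14 to 0.56) and PTU in wildtype testes at day 25 (0.23 to 0.40), and not in the other comparisons. In these 3 comparisons the block changed no class II call. The fits were tested on simulated data. Alternatives were another summary of probe sets, no filter or a filter at the 50th percentile, quantile normalisation, array weights, the sample number as a block, the groups of a contrast alone and leaving out each array in turn.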

Additional observations from a re-analysis of the deposited data

Results flagged for a closer look

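The PTU response of H2-DMa at day 25 differed between homozygous and wildtype testes by -0.70 ± 0.19 on the log2 scale (limma interaction, adjusted p = 0.00641), a difference between genotypes under the same contrast, which 59.4% of all genes passed. Both homozygous PTU-exposed arrays stood apart over the whole array, with Spink8 at 12.92 and 12.75 and low pachytene and later germ cell genes. H2-DMa read 6.73 and 7.03 in homozygous testes with PTU, against 7.77, 7.72 and 7.65 without, and 7.36, 7.28 and 7.13 in wildtype testes with PTU, against 7.57, 7.40 and 7.19 without. The difference stayed past the threshold without any 1 array, from -0.85 to -0.55. No group had more than 3 arrays, so no single array was tested for standing apart from its group.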

How the results depend on the processing

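Each class II difference that passed was refitted under each alternative. The alternatives listed in the methods, single arrays left out apart, gave 135 refits that passed and 21 that did not. Those chosen after seeing the data (the array sets as a block or the larger set only, without arrays with Spink8 above 7, without the homozygous PTU-exposed arrays) gave 8 that passed, 16 that did not and 1 that turned. The one that turned was H2-Aa for PTU averaged at day 25, at -0.23 over heterozygous and wildtype testes without the Spink8 arrays (adjusted p = 0.536). With only the homozygous PTU-exposed arrays left out, the difference over the same genotypes stayed positive and did not pass. The causes were not tested. Counts of class II genes past the threshold follow, out of 7.

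At day 15, PTU averaged over genotypes had 2 with the replicate block and 0 without the Spink8 arrays, against 1 as reported. PTU in wildtype testes had 0 without the filter and 0 without the Spink8 arrays, against 1. PTU in heterozygous testes had 1 with array weights (499 genes in all, against 95) and 1 with the array set as a block, against 0. Homozygous minus wildtype without PTU had 1 without the filter, 1 with quantile normalisation and 0 without the Spink8 arrays, against 2. Over both exposures it had 4 with array weights, 0 with the array set as a block, 0 in the larger set and 0 without the Spink8 arrays, against 2, with 2991, 1522 and 1719 genes in the last 3 of these, against 4721. Heterozygous minus wildtype had 3 with array weights (1257 genes, against 167), 2 with the replicate block (767 genes), 0 with the array set as a block (34 genes), 0 in the larger set (0 genes) and 0 without the Spink8 arrays (93 genes), against 1. The homozygous interaction had 1, H2-DMa, with quantile normalisation, with array weights (4904 genes, against 2734) and with the replicate block, against 0.

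At day 25, PTU averaged had 3 with quantile normalisation, 1 with the mean of probe sets, 1 with array weights, 0 without the Spink8 arrays (27 genes, against 10423) and 0 without the homozygous PTU-exposed arrays (2855 genes), against 2. PTU in heterozygous testes had 1 with the filter at the 50th percentile, with quantile normalisation and without the homozygous PTU-exposed arrays, against 0. With the mean of probe sets, PTU in homozygous testes had 3 against 2 and homozygous minus wildtype with PTU 5 against 4. Homozygous minus wildtype over both exposures had 3, without Ciita, with the mean of probe sets, the filter at the 50th percentile, quantile normalisation and the replicate block, against 4. With array weights, PTU in homozygous testes had 1 against 2, homozygous minus wildtype without PTU had 1 against 0 (4871 genes, against 2065), and with PTU or over both exposures 1 against 4. These 2 comparisons also had 1 with their groups fitted alone. The homozygous interaction had 2 with the replicate block, against 1.

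Leaving out each array in turn at day 15 gave 1 to 2 for PTU averaged, 0 to 1 for PTU in wildtype and in homozygous testes, 0 to 0 in heterozygous testes, 0 to 2 for homozygous minus wildtype without and with PTU, 1 to 3 over both, 0 to 2 for heterozygous minus wildtype, and 0 to 1 and 0 to 0 for the homozygous and heterozygous interactions. At day 25 it gave 2 to 2 for PTU averaged and in homozygous testes, 0 to 1 in heterozygous and 0 to 0 in wildtype testes, 0 to 0 for homozygous minus wildtype without PTU, 1 to 5 with PTU, 1 to 4 over both, 0 to 1 for heterozygous minus wildtype, and 1 to 3 and 0 to 0 for the interactions.

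Under the replicate block, which is the labels' sample number, H2-Ab1 for PTU averaged at day 15 (adjusted p = 0.0352), Cd74 for heterozygous minus wildtype (adjusted p = 0.0285), the H2-DMa interaction at day 15 (adjusted p = 0.0431) and the H2-Aa interaction at day 25 (adjusted p = 0.0314) passed, and Ciita for homozygous minus wildtype at day 25 did not (adjusted p = 0.0576). The block changed no other class II call. Ciita lay near the filter, so its differences are limited by signal.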

Other observations

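H2-Ea, the I-E alpha chain, which mice of the C57BL6 background are known not to express, lay between 4.67 and 5.12 at day 15, below the filter on low values. At day 25, on the other array type, its probe set read 7.41 to 8.56 in all 17 arrays. H2-Eb1, whose product pairs with it, passed the filter at both ages.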
